A study of Saccharomyces cerevisiae with 4 samples.

Results

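The internal start sites described here are the 298 single bases inside genes at which the wild-type strain BY4741 showed a capped 5′ end with 3 or more counts in each of its 2 libraries. They were chosen by these counts among sense positions from +200 to the end of the nuclear protein-coding genes of R64-1-1, outside the 300 bp upstream of any gene on the same strand. In all, 294325 positions of this kind had a count in at least 1 of the 4 libraries, so the 298 are a small subset. They lay in 175 of the 5779 genes that had an eligible base. Whether each of these 5′ ends marks a start of transcription was not tested. The libraries came from cultures of 2 yeast strains in YPD at mid-log phase, 2 from set2Δ, in which kanMX4 replaces SET2 in the BY4741 background, and 2 from BY4741 itself, a Mat a strain with his3, leu2, ura3 and met15 auxotrophies that both strains share through this background. The series describes the duplicates of each strain as biological.

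Most transcription by RNA polymerase II starts at a promoter upstream of the gene, where the polymerase of budding yeast scans downstream of the assembled initiation complex and starts at a pyrimidine followed by a purine, often with an A some bases before. Within the gene, nucleosomes are reassembled behind the polymerase. Set2 methylates lysine 36 of histone H3 over transcribed genes, the Rpd3S complex deacetylates the nucleosomes that carry this mark, and without Set2 many genes initiate from sites in their coding region. The positions described here are the complement of that phenotype, 5′ ends found inside genes while Set2 is present.

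SET2 itself (chrX:102227-104428, minus strand) had 0 and 1 counts in its gene body in the set2Δ libraries, against 9 and 2 in the BY4741 libraries. In the 250 bp upstream of the gene, which the deletion leaves in place, there were 13 and 11 counts in set2Δ and 22 and 11 in BY4741. The libraries held 1267578 and 1099482 counts for set2Δ and 452888 and 375442 for BY4741. Internal sense positions took up 17.6 and 16.3% of the set2Δ counts and 10.2 and 9.16% of the BY4741 counts. Counts at single positions piled up below 18. In the set2Δ libraries 13539 and 11715 positions reached 16 counts and only 4587 and 4619 reached 18, and in the BY4741 libraries 4130 and 3285 reached 16 and 1934 and 1491 reached 18. A small part went further, with 2240 and 2287 positions at 20 or more in set2Δ and 1057 and 826 in BY4741, and a highest count of 225 and 218 in set2Δ and 221 and 175 in BY4741. Levels are also given as CPM, the count scaled to the library total, and equal counts in set2Δ and in the shallower BY4741 libraries give a CPM ratio below 1.

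Positions fell into 3 kinds by the bases around their start. The sequences of the 12 highest host genes and of RPP0, a ribosomal stalk protein gene picked as a further example of the third kind, are shown here with 25 bases from RefSeq (R64) from 15 bases before to 9 bases after the first base of the RNA. The capitals are the 2 bases before the first base and the first base itself. These 4 positions have a pyrimidine followed by a purine, the usual start site of yeast:
EMI1, chrIV:1470785-1470809, minus strand: aaaagagagcagcTTGaggaagaaa
YMR114C, chrXIII:496585-496609, minus strand: cgaggtgtaaaggGTGacaaatcgt
ICL2, chrXVI:567948-567972, minus strand: aggccttagaaaaGCAgtttacggc
DAP1, chrXVI:228525-228549, plus strand: gcacaagagggagGCAgttttacgg

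The next 6 have G and A as the 2 bases before the first base:
RPL15A, chrXII:202241-202265, minus strand: gtgccgctaacttGAGagtcttgaa
KRS1, chrIV:526885-526909, plus strand: accgggtctatgtGAGcgtttcgag
PUB1, chrXIV:604190-604214, plus strand: acttataatgaatGACcaacaacaa
ARO4, chrII:717666-717690, minus strand: tatccatcattatGAGagcatactt
CDC19, chrI:73194-73218, plus strand: tcggtatcttgaaGAAgggtgacac
HSC82, chrXIII:634394-634418, plus strand: agaaaccgctccaGAAgcttctacc

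A further 3 belong to neither kind:
AXL2, chrIX:87700-87724, plus strand: gaaaatttttgctGGGtccatagca
HCR1, chrXII:539036-539060, minus strand: cgattgatttgatTAGagatgtagc
RPP0, chrXII:806576-806600, plus strand: aaccttgccatctGTCggtcacact

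Of the 298 positions, 124 (41.6%) had a pyrimidine before and a purine at the first base, 82 (27.5%) had GA before the first base and 92 (30.9%) had neither. The class with GA was defined after the sequences had been seen, so its share is a description. Over all 7551817 eligible bases, 23.1% had the pyrimidine and purine and 7.45% had GA before them. In the 5′ windows of genes (from 250 bp upstream to the base before +200), where the annotated promoters act, the same count rule chose 25926 positions, of which 80.2% had the pyrimidine and purine and 2.23% had GA. The internal positions of set2Δ resembled the 5′ windows in this respect. Of 6324 internal positions with 3 or more counts in both set2Δ libraries, 82.6% had the pyrimidine and purine and 5.17% had GA, and of the 3774 of these without any count in BY4741 the shares were 90.3% and 1.64%. Thus the wild-type internal positions stood apart in base context from both sets. The shares were alike on both strands, with 40.9% and 42.4% for the pyrimidine and purine and 27.7% and 27.3% for GA on the plus and the minus strand.

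**Figure D1:**
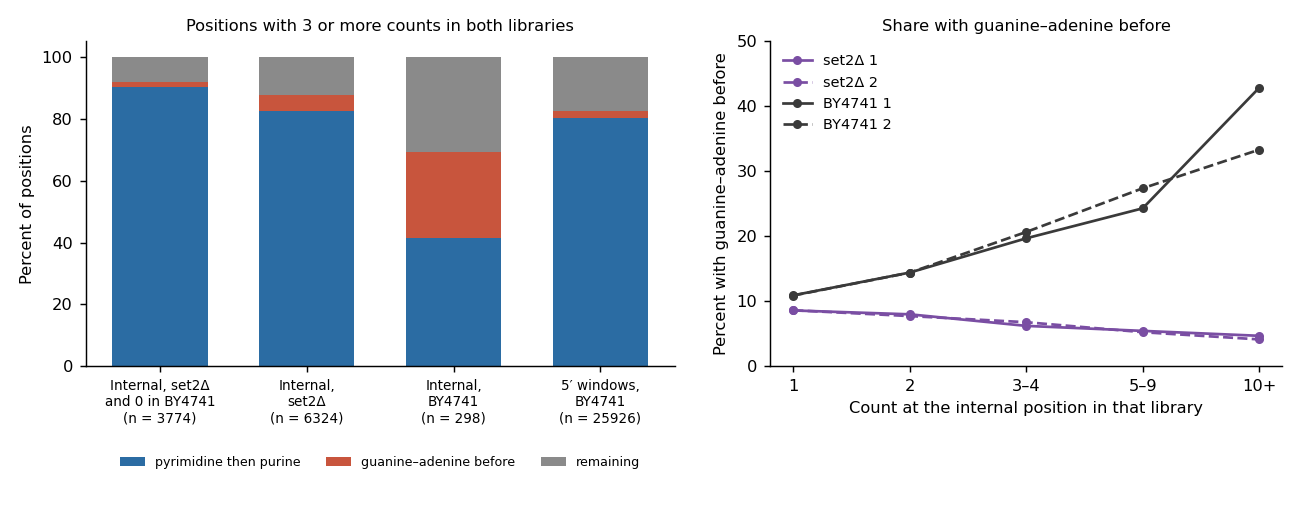
Left, percent of positions with a pyrimidine then a purine (blue), with guanine and adenine before the first base (red) and remaining (grey), in internal positions of set2Δ without BY4741 counts, internal positions of set2Δ, internal positions of BY4741 and 5′ windows of BY4741. Right, percent of internal positions with guanine and adenine before the first base by the count at the position in each library: in both BY4741 libraries the share was higher the higher the count, up to 42.9 and 33.3% at 10 or more counts, whereas in both set2Δ libraries it was at most 8.63%.

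The share with GA depended on the count at the position. In set2Δ it was 8.60 and 8.63% among internal positions with 1 count and 4.70 and 4.14% among those with 10 or more. In BY4741 it was 10.9% in each library among positions with 1 count, 19.7 and 20.7% at 3 to 4 counts, and 42.9 and 33.3% at 10 or more, where the libraries held 56 and 36 positions. The pyrimidine and purine went the other way in set2Δ, with 42.1 and 44.5% at 1 count and 87.6 and 88.1% at 10 or more. In BY4741 it was 32.1 and 30.4% at 1 count and 39.3 and 30.6% at 10 or more, and at most 43.5% in any class of count.

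Further bases distinguished the classes. At the third base before the first base, 77 of the 82 positions with GA (93.9%) had an A or a T, against 58.9% of those with a pyrimidine and a purine, 75% of the remaining ones and 60.6% of eligible bases. At the first base itself, 38 had A and 32 had G. The positions with a pyrimidine and a purine had A at the eighth base before the first base in 58.1% of cases, the place of the A in yeast start sites, against 37.8% with GA, 37.0% of the remaining ones and 32.8% of eligible bases. Of the 92 remaining positions, 44 had G at the first base, and in 25 of these the base before it was also G. The TATA box is a promoter element bound by the TATA-binding protein. The letters TATAAA, searched on both strands between 150 and 40 bp upstream, stood at 11.3% of the positions with a pyrimidine and a purine, 2.44% of those with GA and 5.43% of the remaining ones, against 8.05% of all eligible bases and 24.2% of the positions in 5′ windows. Of these 21 positions 13 lay in EMI1, whose positions share 1 upstream stretch. Without EMI1 the letters stood at 7 of 113 positions with a pyrimidine and a purine (6.19%), 1 of 81 with GA and 0 of the 82 remaining ones, each share below that of the eligible bases.

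The highest of all was a position with GA in RPL15A, which encodes a protein of the large ribosomal subunit. It had 15 and 18 counts in set2Δ, against 19 and 18 in BY4741. KRS1, the cytosolic lysyl-tRNA synthetase, had 18 and 18 counts at its position in set2Δ and 20 and 16 in BY4741. EMI1, a gene needed for the start of sporulation, had 18 and 18 in set2Δ and 16 and 19 in BY4741 at the highest of its positions. The raw counts of all 3 were thus about equal in the 4 libraries, although the set2Δ libraries were deeper. AXL2, a membrane protein that marks the axial bud site, had 17 and 18 counts in set2Δ and 19 and 15 in BY4741, at a base 2349 bp after the start of a gene of 2472 bp. HCR1, a component of translation initiation factor eIF3, had 16 and 17 in set2Δ and 17 and 16 in BY4741. PUB1, a poly(U)-binding protein, had 16 and 17 in set2Δ and 16 and 14 in BY4741. ARO4, the first enzyme of aromatic amino acid synthesis, CDC19, the pyruvate kinase, and HSC82, an Hsp90 chaperone, are further high positions with GA. Their counts lay between 14 and 16 in set2Δ and between 11 and 16 in BY4741. ICL2 and DAP1, of which DAP1 is a heme-binding protein of sterol synthesis, had 14 to 15 counts in set2Δ and 12 to 14 in BY4741.

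Altogether 26 positions in 19 genes had 10 or more counts in both BY4741 libraries. Of these, 10 had a pyrimidine and a purine, 12 had GA and 4 were of neither kind. Several of the 10 were neighbouring bases of EMI1, so this class covers fewer genes than its number of positions. The median counts of the 26 were 16 and 16 in set2Δ and 16 and 13.5 in BY4741. Their CPM ratio of set2Δ to BY4741 had a median of 0.38 and lay between 0.28 in FBA1 (aldolase), with 13 and 7 counts in set2Δ and 14 and 11 in BY4741, and 0.55 in YMR114C, with 20 and 23 in set2Δ and 16 and 12 in BY4741. Equal raw counts would give a ratio of 0.35, the ratio of the mean library totals of BY4741 to those of set2Δ. Besides FBA1, the lowest ratios of this set were those of RPL15A, RPS15, EMI1 (base 1470783), HSC82 and HCR1, between 0.31 and 0.35. Besides YMR114C, the highest were those of RPL26A, EMI1 (another base, 1470773), RPL3, RPP0 and VMA2, between 0.43 and 0.49. The BY4741 counts that chose the 26 are the denominator of these ratios, and the median counts lie near the pile-up. Nothing is read from the order of these genes.

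**Figure D2:**
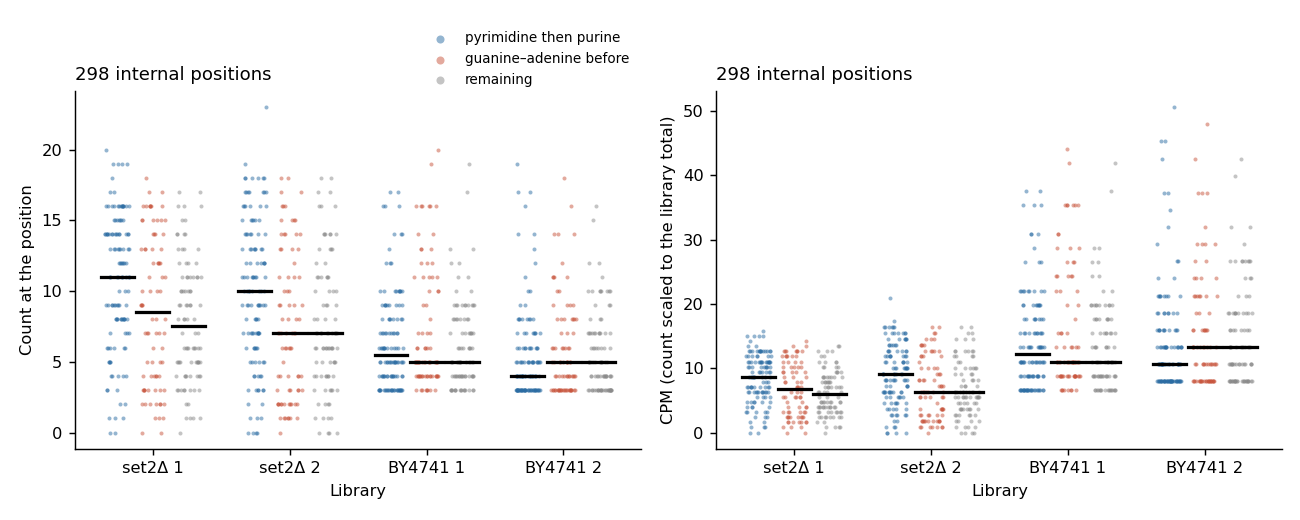
Counts (left) and CPM (right) at the 298 positions in the 2 set2Δ and the 2 BY4741 libraries, by base context, with black bars for the medians. Over all positions the median count was 9 and 8 in set2Δ and 5 and 5 in BY4741, where the rule sets the floor of 3.

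Most positions stood alone, and a few genes held many. Positions at most 20 bp apart formed 230 groups, 203 of them with 1 position, and 117 of the 175 genes had 1 position only. EMI1 had 22 positions in 80 bp (chrIV:1470758-1470837), between 226 and 305 bp after its start. All counts in this stretch summed to 365 and 341 in set2Δ and 252 and 228 in BY4741, a CPM ratio of 0.51. The 5′ window of EMI1 had 11 and 19 counts in set2Δ and 1 and 0 in BY4741. Nearly all sense 5′ ends counted for this gene in BY4741 thus lay inside the annotated open reading frame. DAP1 had 7 positions in 38 bp, with 109 and 100 counts in the stretch in set2Δ and 76 and 60 in BY4741. YMR114C, annotated as a putative peptide hydrolase, had 7 positions in 36 bp, all with a pyrimidine and a purine. Its stretch had 242 and 231 counts in set2Δ and 78 and 45 in BY4741, a CPM ratio of 1.37. TDH3 (glyceraldehyde-3-phosphate dehydrogenase) had 6 positions and RPL3 had 5, but these were spread over 510 and 590 bp. The TDH3 stretch had 68 and 43 counts in set2Δ and 143 and 114 in BY4741.

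The classes also differed in how sharp the 5′ ends were. Counts at the position made up a median of 66.6% of all sense counts within 10 bp in set2Δ and 71.4% in BY4741 for the positions with GA. For those with a pyrimidine and a purine it was 31.8% in set2Δ and 42.9% in BY4741. The BY4741 values are raised by the choice of the positions in these libraries, whereas the set2Δ values are not. The pile-up of single counts below 18 can lower the shares where counts are high, since a window sums several bases. Its part in the difference between the classes was not tested. Another position of the set lay within 10 bp of 8 of the 82 positions with GA and of 53 of the 124 with a pyrimidine and a purine.

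The positions lay at a median of 67.7% of the gene length (quartiles 47.5 and 83.3%), against 56.1% for all eligible bases (quartiles 34.1 and 77.8%). For the 26 positions with 10 or more counts in both BY4741 libraries the median was 58.1%. Several of these 26 are neighbouring bases of EMI1, among them those at 47.8, 49.7 and 51.5% of its length. This median therefore leans on 1 gene, and nothing is read from it. The median distance was 668.5 bp from the gene start and 283.5 bp from its end. For internal positions of set2Δ without BY4741 counts the median place was 72.3%, also without matching for gene length. Among the classes the medians were 60.6% with a pyrimidine and a purine, 65.3% with GA and 76.5% for the remaining ones. Of the 293 positions in exons, the first ATG after the position was in frame with the gene at 31.7%, close to the 30.4% of all eligible coding bases.

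**Figure D3:**
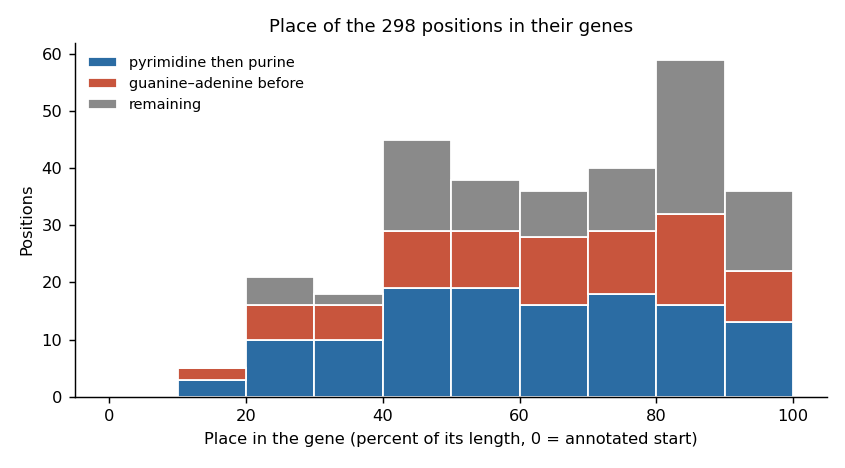
Number of positions by place in the gene (percent of the gene length from the annotated start, in steps of 10 percent), coloured by base context. The bins from 40% onward hold most positions, and the bin from 80 to 90% is the highest.

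The other 5 positions lay in introns of 3 genes. The position in RPL26A, a gene of the large ribosomal subunit, was the last base of its intron, 1 base before the next exon, and had 16 and 16 counts in set2Δ and 13 and 10 in BY4741. HAC1, whose mRNA is spliced by an unconventional pathway in the unfolded protein response, had 2 positions. They were 146 and 52 bp before the next exon. The first had 4 and 1 counts in set2Δ and 8 and 8 in BY4741. The aminopeptidase gene APE2 had 2 positions in its intron, of which the higher had 13 and 10 counts in set2Δ and 8 and 8 in BY4741.

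Host genes were often highly expressed. The level of a gene is given here by its counts in the 5′ window in BY4741, which the rule did not use. Bases shared by the 5′ windows of neighbouring genes on the same strand were left out. A low level can therefore also come from missing bases. Of the 100 genes with the highest level 34 were hosts, of the next 200 genes 26, of the next 700 genes 42, and of the 4645 genes below these only 67. A further 6 hosts had too few counts to be ranked. The classes differed in this respect. The median level of the host was taken over positions, so a gene with many positions enters many times. In counts of the 5′ window summed over the BY4741 libraries, it was 45 for positions with a pyrimidine and a purine. It was 530 for those with GA and 538.5 for the remaining ones. The 300 highest genes held 10.5% of the first class, 59.8% of the second and 57.6% of the third, against 2.22% of all eligible bases. They held 1.78% of the set2Δ positions without BY4741 counts, for which the same median over positions was 26 counts. That set was chosen for having no count in the BY4741 libraries, which also give the level. Its low level is thus partly set by the choice. Level moves with base context here, and its part in the context was not tested.

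At the other end, 16 host genes had at most 1 count in their 5′ window in both BY4741 libraries together, again without shared bases. They held 42 positions, of which 30 had a pyrimidine and a purine and 1 had GA. Without EMI1 there remained 20 positions in 15 genes, 19 of them with a pyrimidine and a purine. ICL2, a mitochondrial enzyme of propionate metabolism, was among them. Its 5′ window had 2 and 0 counts in set2Δ and 0 and 0 in BY4741, while its highest internal position had 14 and 15 in set2Δ and 12 and 14 in BY4741.

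**Figure D4:**
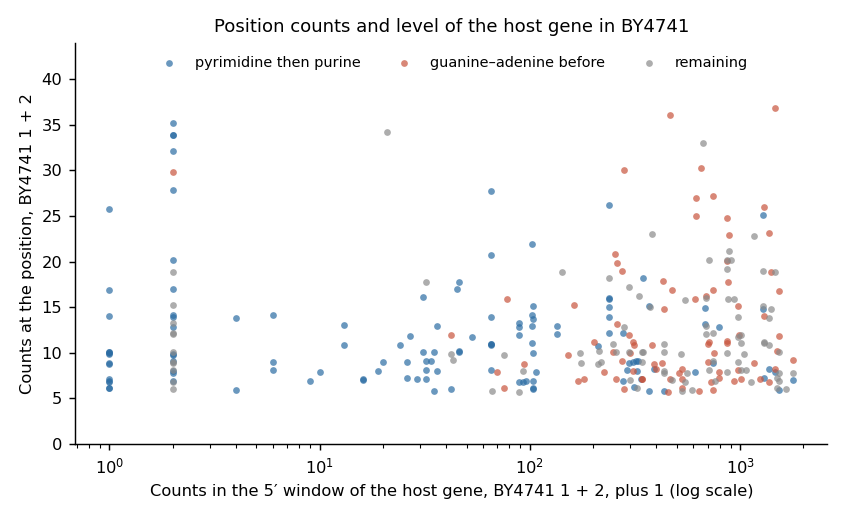
Counts at each position against the counts in the 5′ window of its host gene, both summed over the 2 BY4741 libraries (5′ window plus 1, log scale; points shifted slightly up or down). Positions with guanine and adenine before them (red) and remaining positions (grey) gather at high levels, and those with a pyrimidine and a purine (blue) run over the whole range.

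Cytoplasmic ribosomal protein genes had 53 positions in 31 of 133 genes, 17.8% of the positions in 0.984% of the eligible bases. Of these 53 positions 6 had a pyrimidine and a purine, 23 had GA and 24 neither. Genes of glycolysis and fermentation had 28 positions in 9 of 21 genes, 9.40% of the positions in 0.348% of the eligible bases, with 159 and 123 counts in set2Δ and 180 and 164 in BY4741. Their median CPM ratio was 0.27, against 0.51 over all 298 positions. Translation factors had 7 positions in 5 of 23 genes (2.35% of the positions in 0.386% of the eligible bases). Heat shock chaperones had 2 positions, both in HSC82 (0.671% of the positions in 0.377% of the bases). Cell wall proteins had 4 positions in 2 genes, all with GA (1.34% of the positions in 0.200% of the bases). Of the cell wall proteins SED1, a mannoprotein of the stationary phase, had 3 positions, of which the highest, named after its values were seen, had 12 and 9 counts in set2Δ and 5 and 3 in BY4741. None of the 21 plasma membrane transporters and pumps, the 7 reporters of cryptic initiation or the 20 chromatin and elongation factors held a position. These 3 lists hold only 0.495, 0.220 and 0.551% of the eligible bases. Their lack of positions is near these shares, and nothing is read from it.

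Most of the positions also had counts in set2Δ. Of the 298, 251 (84.2%) had 3 or more counts in both set2Δ libraries. A count in both was found at 284, and 5 and 9 had none in set2Δ replicates 1 and 2. The set2Δ libraries were deeper, so 3 counts are a lower CPM there, and these shares do not measure equal use. Of positions chosen on 1 BY4741 library only, 54.1 to 58.4% had 3 or more counts in both set2Δ libraries. The 298 positions summed to 2767 and 2555 counts in set2Δ and 1981 and 1684 in BY4741. As a share of all internal counts this was 1.24% (95% Wilson interval 1.19 to 1.28%) and 1.42% (1.37 to 1.48%) in set2Δ, and 4.29% (4.11 to 4.48%) and 4.90% (4.67 to 5.13%) in BY4741. The intervals cover counting error only. The share in BY4741 is raised by the choice of the positions on these same counts.

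In CPM the median ratio of set2Δ to BY4741 was 0.51, with 0.61 for positions with a pyrimidine and a purine, 0.40 for those with GA and 0.44 for the remaining ones. The ratio was above 1 at 18 positions in 15 genes, of which 15 had a pyrimidine and a purine and none had GA. Examples singled out after their values were seen are RTT106, a histone chaperone gene, with 16 and 18 counts in set2Δ and 3 and 4 in BY4741, and PIF1, a DNA helicase gene, with 16 and 16 in set2Δ and 4 and 3 in BY4741. At the other extreme, also singled out afterwards, were alcohol dehydrogenase genes. The position in ADH7 had 1 and 0 counts in set2Δ and 7 and 3 in BY4741, and 1 position of ADH1 had 0 and 1 in set2Δ and 5 and 5 in BY4741. Of the 290 positions with at least 10 counts over the 4 libraries, 217 had both set2Δ libraries below both BY4741 libraries in CPM and 6 above, where 7.19% of all 4198 internal positions tested were below and 75.9% above. With edgeR's quasi-likelihood test and Benjamini-Hochberg adjustment over these 4198 positions (adjusted p below 0.1), 155 of the 290 were called lower in set2Δ and 0 higher, beside 4.67% of all tested positions called lower and 55.3% higher. The BY4741 counts that chose the positions enter all of these comparisons. The tested positions needed 10 counts over the 4 libraries, which the deeper set2Δ libraries could reach alone, so their shares lean toward set2Δ. The median log2 ratio over all tested positions was 2.39, and 3.89 and 1.74 with filters of 5 and 20 counts. The calls thus describe the choice on both sides and nothing is read from them. For a single value, 2 libraries against 2 allow no exact two-sided permutation p below 0.33.

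A less biased ratio came from choosing internal positions with 3 or more counts in 1 BY4741 library and comparing set2Δ with the other. Replicate 1 chose 939 positions, of which 298 (31.7%) reached 3 counts in replicate 2 and 275 had 0 there. Replicate 2 chose 598, of which the same 298 (49.8%) reached 3 counts in replicate 1 and 115 had 0. Summed over the positions, the CPM ratio of set2Δ to the other BY4741 library was 0.75 for the choice on replicate 1 and 0.63 for that on replicate 2. It differed by class. For positions with a pyrimidine and a purine it was 0.99 and 0.79, for those with GA 0.58 and 0.47, and for the remaining ones 0.60 and 0.55. Over all counts, the positions with GA and the remaining ones were thus lower under both choices. At 10 or more counts the classes lay closer, with 0.47 and 0.44, 0.43 and 0.37, and 0.51 and 0.42 in the same order. There the remaining ones were higher than the first class under the choice on replicate 1. The ratio also depended on the count. Positions of 3 to 4 counts had ratios of 1.03 and 0.76, those of 5 to 9 counts 0.65 and 0.59, and those of 10 or more 0.46 and 0.41. In the 5′ windows the ratios for these classes of count were 1.08 and 0.94, 0.78 and 0.69, and 0.44 and 0.46. At 3 to 4 counts the base contexts ranged from 0.83 to 1.16 in 5′ windows and from 0.56 to 1.45 at internal positions. The pile-up of high counts moves with this fall in both kinds of window, and its part in it was not tested.

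**Figure D5:**
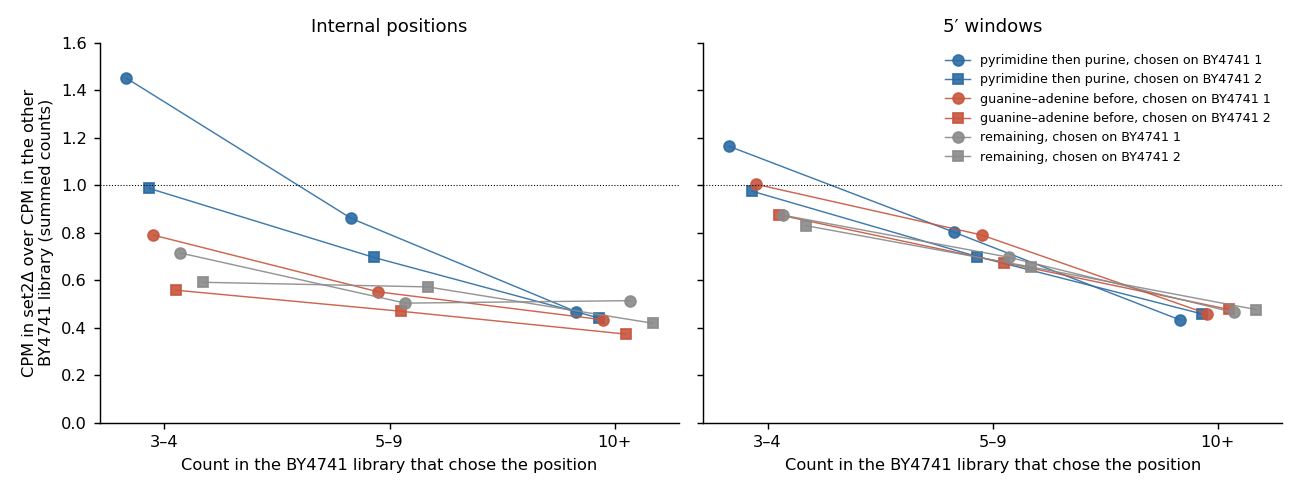
CPM in set2Δ over CPM in the BY4741 library that did not choose the positions, from summed counts, by the count in the library that chose them, for internal positions (left) and 5′ windows (right). Circles and squares are choices on BY4741 replicates 1 and 2. At 3 to 9 counts the internal positions with guanine and adenine before (red) and the remaining ones (grey) lie below those with a pyrimidine and a purine (blue), while in 5′ windows the classes lie closer together.

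The other 5′ ends of the host genes were compared between the strains with the same test per gene. In the internal window, from +200 to the gene end without the 298 positions, 103 of 174 tested host genes were lower in set2Δ and 18 higher (edgeR, adjusted p below 0.1), where 17.8% of all 4694 tested genes were lower and 24.1% higher. The median log2 ratio was -0.96 over the hosts and 0.12 over all tested genes. Scaled to library totals, 61 were lower and 36 higher, with medians of -0.25 and 0.84, and scaled to the counts in 5′ windows 51 were lower and 44 higher, with medians of -0.05 and 1.04. Without set2Δ replicate 1, 75 were lower and 10 higher. The hosts' median minus that of all genes was -1.09 under each of these scalings. TDH3 fell most clearly, with 80 and 46 counts in set2Δ and 158 and 142 in BY4741 outside its positions (log2 ratio -3.50, adjusted p = 2.47e-51, edgeR). RPL15A had 121 and 93 in set2Δ and 97 and 60 in BY4741 and was also lower (log2 ratio -1.78, adjusted p = 3.41e-14, edgeR). PIF1 and RTT106 were higher, with log2 ratios of 2.36 and 2.07 (adjusted p = 4.94e-12 and 6.46e-11, edgeR), and YMR114C was higher by 1.27 (adjusted p = 2.94e-06, edgeR). NOP58, a core protein of box C/D snoRNPs with 4 positions, had 687 and 607 counts in set2Δ and 163 and 106 in BY4741 and did not pass with TMM normalization (log2 ratio 0.05, adjusted p = 0.90, edgeR). RPL15A, PIF1, RTT106 and NOP58 are examples chosen after their values were seen, as is TDH3 for this window.

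Hosts differed by class here too, in the fit with TMM normalization. Under scaling to library totals or 5′-window counts, where fewer of all hosts were lower, the classes were not counted. Of 59 hosts with pyrimidine and purine positions only, 20 were lower and 13 higher (median log2 ratio -0.37), of 43 hosts with GA positions only, 32 were lower and 0 higher (median -1.13), and of 38 hosts with remaining positions only, 23 were lower and 5 higher (median -0.97), beside the 17.8% lower and 24.1% higher of all tested genes. Genes that were no hosts also had lower ratios at higher levels, where the level comes from the same BY4741 libraries as the ratio. Among the 100 genes of highest level the median was -1.72 over 34 tested hosts and -1.30 over 55 other genes, and among genes below the first 1000 it was -0.16 over 66 hosts and 0.41 over 3722 other genes. The gap between hosts and other genes was smaller within these levels than over all genes.

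At the 5′ window 100 of 160 tested hosts were lower in set2Δ and 21 higher (edgeR, adjusted p below 0.1), where 30.1% of all 5251 tested genes were lower and 32.8% higher. The median log2 ratio was -0.68 over the hosts and 0.11 over all. Scaled to the counts in 5′ windows, 85 hosts were lower and 39 higher, with medians of -0.32 and 0.47. Within the 100 genes of highest level the medians were -1.18 over the 34 hosts and -1.08 over the 66 other genes, and all 100 genes were called lower. The level that ranks the genes is the BY4741 count in this same window, the denominator of the ratio, so the ranking uses part of the outcome and nothing is read from this comparison. TDH3 had 694 and 599 counts in set2Δ and 723 and 807 in BY4741 (log2 ratio -1.93, adjusted p = 3.00e-54, edgeR), and EMI1 was higher in set2Δ at its weak 5′ window (log2 ratio 3.09, adjusted p = 0.0097, edgeR).

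The positions just inside the limit had 3 counts in the lower BY4741 library, which held for 118 of the 298. A further 362 positions just outside it had 2 counts there. Of these 362, 40.9% had a pyrimidine and a purine and 22.4% had GA.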

How the data were processed

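Capped 5′ ends of total RNA were sequenced in 4 libraries. The authors deposited whole-number counts of 5′ ends for every base of each strand, without normalization and per replicate. Per the paper's methods, Novoalign placed the reads on R64-1-1, and those that mapped to several places or had clipped bases at the 5′ end were discarded. The submitters' processing notes also name CASAVA 1.8.2. Whether reads sharing a random barcode were collapsed is not given in the sources used here. Depth was 1099482 to 1267578 counts in set2Δ and 375442 to 452888 in BY4741.

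Minus-strand positions were moved 42 bp to the 5′ end. Genes and sequences were those of RefSeq R64. All 298 positions begin a unique 43-mer. The members and gene lists were chosen with earlier results of these data known. Counts were compared with edgeR 4.0.16 (R 4.3.3, quasi-likelihood test, TMM, features with at least 10 counts, Benjamini-Hochberg adjusted p below 0.1), and the fit was tested on simulated data. Alternatives were DESeq2 1.42.0, its size factors, scaling to totals or 5′-window counts, other count filters and limits of the rule, a replicate block and each library left out. Median log2 ratios of held-out positions used a pseudocount of 1 CPM. Named positions, 1 per gene, were the 12 highest in BY4741, the 6 highest and 6 lowest strain ratios among those with 10 or more counts in both BY4741 libraries, the 6 genes with the most positions, the 6 with the highest position relative to the 5′ window, and all in 2 lists (reporters of cryptic initiation, chromatin and elongation factors). Others are named as chosen afterwards. Replicates differed by more than counting noise between genes (chi-square per degree of freedom over 5′ windows 1.17 in set2Δ and 1.39 in BY4741) and were counted as 2 samples per strain, as the series describes them. Python 3.11.15, numpy 2.4.6, pandas 2.3.3, scipy 1.17.1 and matplotlib 3.10.9 were used.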

Additional observations from a re-analysis of the deposited data

How the results depend on the processing

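Among the values of the 298 positions, the number of positions was most sensitive to the rule, with 660, 126 and 26 positions at 2, 5 and 10 counts and 598 to 939 when 1 BY4741 library chose them, while other distances changed it by less than 1.5 times. The share with a pyrimidine and a purine (41.6%) was 47.8% with 100 bp left out at the gene start, 51.6% with no upstream distance, 35.2% with 1 position per group and 32.1% with minus-strand positions as listed. The median place in the gene (67.7%) was 68.9 and 58.1% at 5 and 10 counts, 54.2 and 74.9% with 100 and 300 bp left out at the gene start and 68.6% with 1 position per group. The share found in both set2Δ libraries (84.2%) was 65.6 and 93.7% at 2 and 5 counts and 100% at 10 counts, and 54.1 to 58.4% when 1 BY4741 library chose the positions. The median log2 ratio of set2Δ to BY4741 at the positions (-0.98) was -1.07 and -1.40 at 5 and 10 counts and -0.78 scaled to 5′-window counts. It was -1.19 with TMM, -0.85 without positions of 8 or more counts, and -0.94 and -1.06 without set2Δ replicates 1 and 2. Where 1 BY4741 library both chose the positions and was the denominator, it was -1.50 over 598 positions and -1.40 over 939. These are other sets than the 298. The median at held-out positions (-0.24) is the mean of -0.05 for the choice on BY4741 replicate 1 and -0.44 for that on replicate 2, so the choosing library moved it more than any alternative. It was -0.14 scaled to 5′-window counts, -0.41 with TMM, -0.10 without positions of 8 or more counts, and between -0.23 and -0.19 with each set2Δ library left out. The cause of these shifts was not tested. The 155 positions called became 73 with DESeq2, 103 scaled to 5′-window counts and 91 with a filter of 5 counts, and 27 to 89 with each of the 4 libraries left out. With a replicate block they became 46, and the counts of host genes called were 115 in the internal window and 118 at the 5′ window, against 121 each without it. The replicates share only a number, and deviations of same-numbered libraries correlated at -0.05 over 5′ windows. The counts of host genes called stayed within 1.5 times under all 13 alternatives in each window, although the hosts called higher, 18 in the internal window and 21 at the 5′ window, became 36 and 27 scaled to library totals, 44 and 39 scaled to 5′-window counts and 14 and 8 with DESeq2. Without set2Δ replicate 1 the 18 became 10. Counts of 3 to 5 per library limit the precision of single positions.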
